A study of Mus musculus with 11 samples.

Results

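The genes of the mitochondrial ribosome were taken as every row of the count table whose symbol is Mrpl or Mrps followed by a number and at most 1 letter. This gave 76 of 38406 genes, 47 named for the large subunit (Mrpl) and 29 for the small subunit (Mrps). They were described across 11 tumour libraries of 4 mouse medulloblastoma models, all from strain CD1 and all carrying MYC. The constitutive MYC/Gfi1 group (n = 2) carried MYC with Gfi1, and the constitutive MYC/Otx2 group (n = 3) carried MYC with Otx2. In the S100b-cell group (n = 3), MYC and Gfi1 were expressed in S100b-positive cells. In the N1ICD group (n = 3), Math1-positive cells expressed MYC and Gfi1 together with N1ICD, the part of the Notch1 receptor released inside the cell by cleavage. The constitutive models are the earlier Group 3 models with which the series compares the other 2. The labels give no age and do not state whether replicate libraries are separate mice. The p-values therefore measure only the spread between these libraries, which may be technical.

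Mitochondria keep their own ribosome, which translates the few proteins encoded by mitochondrial DNA, all of them parts of the respiratory chain and ATP synthase. Its RNAs come from the mitochondrial genome, whereas its proteins are encoded in the nucleus, made in the cytosol and imported. Many have a bacterial counterpart and others are found only in mitochondria, and MYC is known as an activator of ribosome and mitochondrial biogenesis genes. Symbols do not map one to one onto subunits: Mrps18a and Mrps30 sit in the large subunit, and Mrps36 was later assigned to the 2-oxoglutarate dehydrogenase complex instead of the ribosome.

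Expression was measured by 3′ mRNA sequencing, with total counts of 6.53 to 8.33 M in the constitutive libraries, 12.77 to 15.19 M in the S100b-cell libraries and 2.58 to 3.38 M in the N1ICD libraries. Levels are in CPM, read counts scaled to the library total of tested genes with TMM factors, and were not ranked between genes because a 3′ count is not a level per length. The names of the count columns follow 3 styles, 1 of them shared by both constitutive groups, so an effect of the naming set and an effect of the model cannot be told apart, other than within the constitutive pair. Summed markers of mature granule neurons ran from 182 to 3529 CPM in the MYC/Gfi1 libraries (6 of 7 with counts in both, Slc17a7 at 0 in 1). These markers reached 374 CPM in the MYC/Otx2 libraries (7 of 7), 222 CPM in the S100b-cell libraries (5 of 7 with counts in every library) and 36.4 CPM in the N1ICD libraries (2 of 7, with Cbln3, Gabra6, Cbln1, Grin2c and Slc17a7 at 0 in at least 1). Vessel wall markers summed to 254 to 6265 CPM in the N1ICD libraries, where 6 of 6 had counts in every library, and to 47.3 to 227 CPM in the others, where Cldn5 was at 0 in at least 1 library of each group. Cldn5 had only 4, 1 and 1 counts in N1ICD, against 0, 13 and 22 in the S100b-cell libraries. Most of the sum in N1ICD replicates 2 and 3 was Acta2 (2584 and 1219 CPM) and Rgs5 (3409 and 822 CPM). All 6 dividing-cell markers had counts in every library and summed to 2143 to 2412 CPM in the MYC/Otx2 libraries, above the 860 to 1351 CPM of the MYC/Gfi1 libraries. They summed to 1105 to 1995 CPM in the S100b-cell libraries and to 1117 to 1587 CPM in the N1ICD libraries. Of the 6, 1 went the other way. Mki67 stood at 50.6 to 57.4 CPM in MYC/Otx2, at 97.7 to 167 CPM in the S100b-cell libraries and at 162 to 277 CPM in N1ICD. Markers of cerebellar and hindbrain origin summed to between 8.35 and 1800 CPM, and En2 was at 0 in at least 1 library of 3 groups. Myelin markers summed to 256 to 784 CPM in MYC/Gfi1 and to 30.6 to 138 CPM in the others (Mog at 0 in at least 1 library of each group). Microglia markers, 6 of 6 with counts in every library, summed to between 101 and 781 CPM. The part of these other cells in the results below was not tested. In bulk tissue, fewer cells of a type and less RNA per cell cannot be told apart.

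Summed over the 76 genes, the MYC/Gfi1 libraries held the fewest mitochondrial ribosomal protein transcripts, apart from 1 N1ICD library. The sums were 3755 and 3484 CPM in the MYC/Gfi1 libraries and 5902, 4994 and 5076 CPM in the MYC/Otx2 libraries. They were 5951, 5986 and 5103 CPM in the S100b-cell libraries and 3126, 4919 and 5712 CPM in the N1ICD libraries. The MYC/Otx2 and S100b-cell sums overlapped each other and lay above both MYC/Gfi1 sums, while N1ICD replicate 1 lay below every other library. The means were 3619 ± 192 CPM (SD, n = 2), 5324 ± 502 (n = 3), 5680 ± 500 (n = 3) and 4586 ± 1325 (n = 3), in that order of groups. As a share of the counts outside the mitochondrial genome, the genes took 0.455% and 0.391% in MYC/Gfi1 and 0.632%, 0.584% and 0.559% in MYC/Otx2. They took 0.711%, 0.716% and 0.6% in the S100b-cell libraries and 0.367%, 0.577% and 0.710% in the N1ICD libraries.

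**Figure D1:**
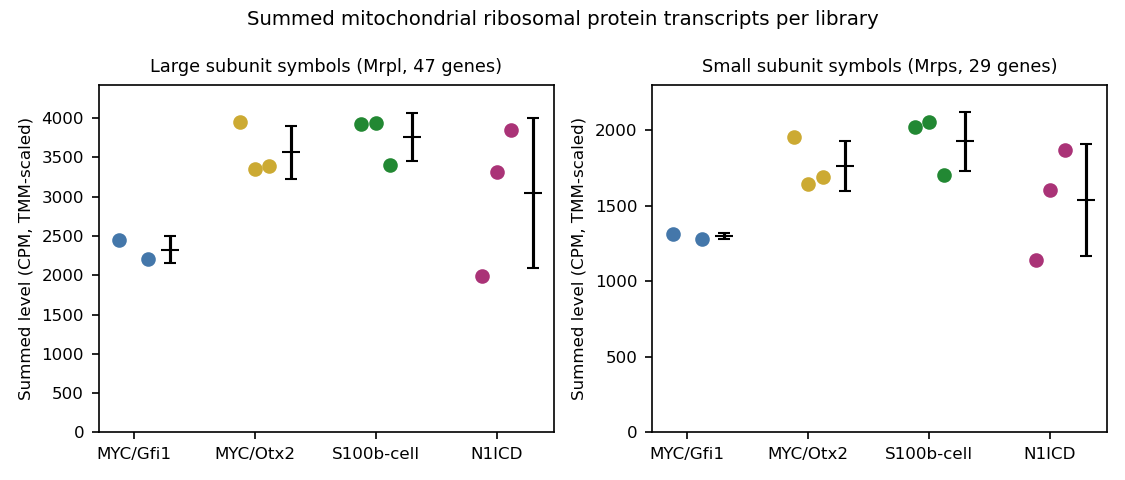
Summed level in CPM (TMM-scaled, y axis from 0) of the Mrpl and the Mrps symbols in each of 11 libraries, by model; points are libraries, and the black marks are the group mean ± SD. Both MYC/Gfi1 libraries lie below every MYC/Otx2 and S100b-cell library in both panels, and the N1ICD libraries are the most spread.

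The large and small subunit symbols moved together across libraries. The ratio of the Mrpl sum to the Mrps sum was 1.87 and 1.72 in MYC/Gfi1, 2.03, 2.04 and 2.0 in MYC/Otx2, 1.94, 1.91 and 2.0 in the S100b-cell libraries and 1.75, 2.06 and 2.06 in the N1ICD libraries. The lowest ratios were those of MYC/Gfi1 replicate 2 and N1ICD replicate 1, the libraries with the lowest sums in their groups.

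Of the 76 genes, 74 passed the low-count filter and were tested. Mrpl53 had 0 counts in all 11 libraries. Mrps34 had 4 counts, all of them in S100b-cell replicate 1. Both are protein-coding genes whose last 300 exonic bases are shared in full with another gene on the same strand in the annotation used here, Gm42688 for Mrpl53 and Nme3 for Mrps34, and Nme3 also had 0 counts. How the counting treated such shared reads is not stated, so these 2 genes cannot be called silent.

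Some other members with low counts had a close copy or an overlapping gene. Mrpl23 had 92 counts in all, while its processed pseudogene Mrpl23-ps1, 100% identical over 298 bases, had 6608. Values of Mrpl23 are uncertain because the division of reads between copies is not stated. Mrpl24 (116 counts) lies opposite Rrnad1 over its whole last 300 bases, and Mrps18b (86 counts) opposite Gm16279, so their reads depend on a strand setting that is not stated either. In total, 11 members shared a stretch of at least 95% identity over at least 100 of their last bases with a gene elsewhere, and 67 members shared their last 300 bases with no other gene on either strand.

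Group by group, 37 of the 74 tested members had their highest mean in the S100b-cell tumours, 25 in MYC/Otx2, 12 in N1ICD and 0 in MYC/Gfi1. The lowest mean was that of MYC/Gfi1 for 52 members, N1ICD for 12, MYC/Otx2 for 7 and the S100b-cell tumours for 3. Within groups, N1ICD replicate 1 was the lowest library for 60 of 74 members and S100b-cell replicate 3 for 57. Ranks of group means and of libraries were not counted over all genes, so no background share stands beside them. The median coefficient of variation over members was 30.7% in N1ICD, 22.2% in MYC/Gfi1, 16.8% in MYC/Otx2 and 13.4% in the S100b-cell group. The 2 MYC/Gfi1 libraries also differed gene by gene: of 68 members with at least 20 counts in either, 10 were over 2-fold higher in replicate 1, among them Mrpl32 at 4.22-fold, Mrpl27 at 4.01-fold and Mrpl50 at 3.42-fold. In the other direction 1 member, Mrpl46, was at 0.312 of its replicate 2 level in replicate 1. Smaller differences went both ways, with 40 of the 68 higher in replicate 1 and 28 in replicate 2. These 4 named members were chosen after their values were seen.

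**Figure D2:**
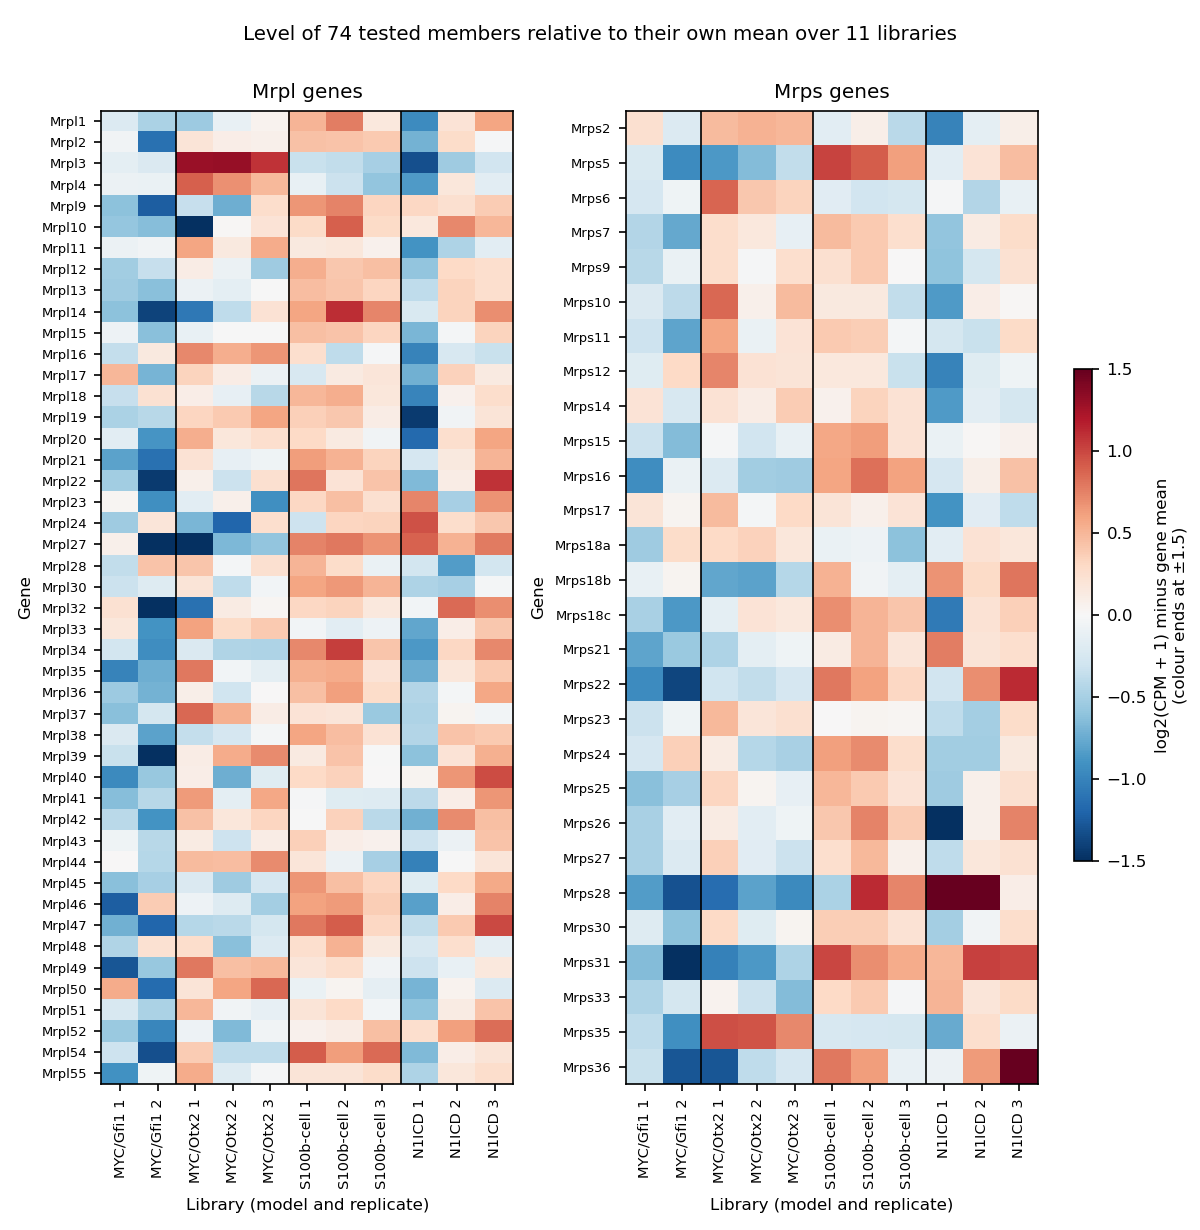
Level of each of 74 tested members (rows, by symbol) in each of 11 libraries (columns), as log2(CPM + 1) minus the gene's mean over the libraries; red is above and blue below that mean, and the colour ends at 1.5 in either direction. The MYC/Gfi1 columns are mostly blue and the S100b-cell columns mostly red, N1ICD replicate 1 is bluer than the other N1ICD libraries, and Mrpl3 and Mrps35 are red in the MYC/Otx2 columns.

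Compared one gene at a time with edgeR, 21 of the 74 members were called in at least 1 of 6 comparisons (Benjamini-Hochberg adjusted p under 0.05 over 15228 genes) and 53 in none. This is 28.4% of members beside 34.1% of all genes tested. A member that was not called is not shown to be unchanged. Losses of single calls given below are mainly those when 1 library was left out. Over all alternatives tried, which also changed the method, 36 of the 40 calls were lost at least once. In every called comparison, all libraries of one group lay above all libraries of the other. The comparisons with the same group as reference share its libraries, so their values are given side by side and are not independent.

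Against the MYC/Gfi1 tumours, every member called was higher in the other model. In the MYC/Otx2 tumours 3 members rose and 0 fell, 4.05% of members beside 5.46% of all genes tested (2.43% higher and 3.03% lower). In the S100b-cell tumours 6 rose and 0 fell, 8.11% beside 4.35% (2.34% higher and 2.01% lower). In the N1ICD tumours 7 rose and 0 fell, 9.46% beside 11.5% (5.47% higher and 6.05% lower). The share of members called was thus below the background in 2 of these comparisons and above it in 1. The median log2 change over the 74 members was 0.50 in MYC/Otx2 (all genes −0.14), 0.77 in the S100b-cell tumours (all genes 0.01) and 0.50 in N1ICD (all genes −0.01). Values above 0 were fitted for 66, 67 and 59 members (89.2%, 90.5% and 79.7%), beside 44.6%, 50.3% and 49.3% of all genes. The libraries did not overlap, in either direction, for 50%, 70.3% and 35.1% of members, beside 43.6%, 41.3% and 38% of all genes. Those higher without overlap numbered 36, 50 and 23 members, beside 20.1%, 22.4% and 18.2% of all genes, and those lower 1, 2 and 3, beside 23.6%, 18.9% and 19.8%.

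These counts depended on single libraries. Without MYC/Gfi1 replicate 2, 1 member was called in MYC/Otx2, 0 in the S100b-cell tumours and 0 in N1ICD. That library held 3529 CPM of granule neuron markers against 182 CPM in replicate 1, and cytosolic ribosomal proteins took 4.57% of its counts outside the mitochondrial genome against 10.5%. The part of these differences in the result was not tested. Without MYC/Gfi1 replicate 1 the S100b-cell count was 12 and the MYC/Otx2 count 5 (all genes 12.2% and 13.3%). Leaving out any one MYC/Otx2 library took the MYC/Otx2 count to 0, and leaving out any one S100b-cell library took the S100b-cell count to 0. The share of all genes called fell at the same time, to between 0.43% and 1.53% in the first case and between 0.0794% and 0.908% in the second. Without MYC/Gfi1 replicate 2 it was 1.34% in MYC/Otx2, 0.374% in the S100b-cell tumours and 4.94% in N1ICD. Leaving out a MYC/Otx2 library took the S100b-cell count to 1 (all genes 1.89% to 2.22%) and, for replicate 3, the N1ICD count to 4 (all genes 8.84%). Without N1ICD replicate 1, 2 or 3 the N1ICD count was 11, 2 or 3 (all genes 11.9%, 5.28% and 5.86%), and without replicate 1 the S100b-cell and MYC/Otx2 counts were 17 and 5, or 23% and 6.76% of members beside 7.15% and 9.3% of all genes. Without S100b-cell replicate 2 or 3 the N1ICD count was 4 (all genes 8.16% and 7.98%), and without N1ICD replicate 2 the S100b-cell count was 4 (all genes 3.55%).

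Against the MYC/Otx2 tumours, members moved both ways. In N1ICD 6 members rose and 7 fell, 17.6% of members beside 21.8% of all genes (12% higher and 9.76% lower). In the S100b-cell tumours 7 rose and 4 fell, 14.9% beside 17.9% (10% higher and 7.89% lower). Both shares were below the background. The median log2 change was −0.02 in N1ICD (all genes 0.14) and 0.45 in the S100b-cell tumours (all genes 0.17). Fitted values were above 0 for 36 and 49 members (48.6% and 66.2%), beside 54.2% and 55.9% of all genes. The N1ICD and MYC/Otx2 libraries did not overlap for 36.5% of members, 11 higher and 16 lower, beside 41.5% of all genes (20.7% and 20.8%). The S100b-cell and MYC/Otx2 libraries did not overlap for 63.5% of members, 34 higher and 13 lower, beside 50.4% (28.6% and 21.8%). The N1ICD median changed sign with the libraries used, at 0.21 without N1ICD replicate 1, 0.13 without MYC/Otx2 replicate 1 and −0.24 without N1ICD replicate 3. The S100b-cell median was 0.28 without MYC/Otx2 replicate 2 (all genes 0.20) and 0.30 without S100b-cell replicate 1 (all genes 0.12). Without the low-count filter it was 0.44, beside 0.38 for all genes.

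Single libraries set these counts as well. Without MYC/Otx2 replicate 1, 2 or 3, the N1ICD count was 2, 5 or 4 (all genes 10.9%, 12.3% and 11.3%) and the S100b-cell count 2, 2 or 5 (all genes 8.58%, 8.5% and 7.89%). Without S100b-cell replicate 1, 2 or 3 the S100b-cell count was 5, 3 or 3 (all genes 11.6%, 8.81% and 7.95%), and without replicate 2 or 3 the N1ICD count was 7 (all genes 17.6% and 17.7%). Without N1ICD replicate 2 or 3 the N1ICD count was 6 or 7 (all genes 14.8% and 17.5%).

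Between the N1ICD and S100b-cell tumours, 0 of 74 members were called by edgeR, beside 1.21% of all genes (0.808% higher and 0.407% lower). An unadjusted edgeR p under 0.05 was reached by 9 of the 74 members, beside 2844 of all 15228 genes, a smaller share of members. Of the members, limma-voom called 0 and DESeq2 called 1, Mrpl30 (all genes 0.834% and 8.93%). The libraries of 13 members did not overlap, all lower in N1ICD, which is 17.6% of members beside 26.1% of all genes (11% higher and 15.1% lower). The median log2 change was −0.25 (all genes −0.06), and it was −0.08 without N1ICD replicate 1 (all genes −0.09) and −0.40 without N1ICD replicate 3 (all genes −0.07).

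**Figure D3:**
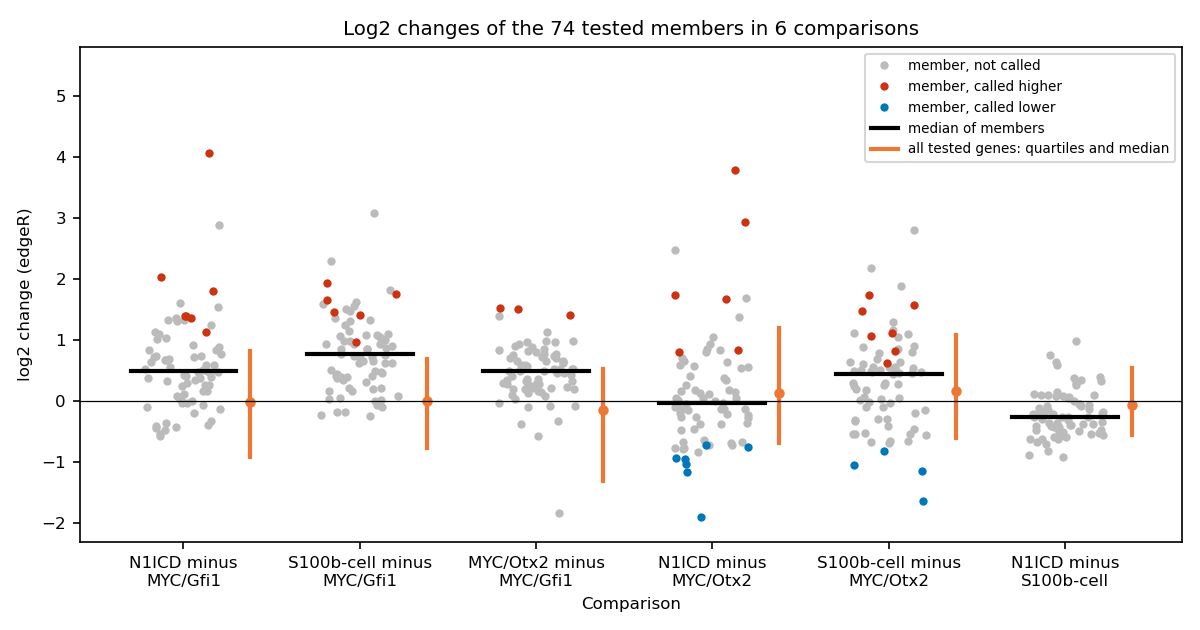
Fitted log2 change (y axis) of the 74 tested members in each of 6 comparisons; red and blue points are members called higher and lower by edgeR, the black line is the members' median, and the orange bar and point are the quartiles and median of all 15228 tested genes. Members sit mostly above 0 in the 3 comparisons with MYC/Gfi1, at medians of 0.50, 0.77 and 0.50, and blue points appear only in the 2 comparisons with MYC/Otx2.

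Mrpl3 was high in the MYC/Otx2 tumours and had the smallest adjusted p of any member. It encodes the counterpart of bacterial L3, a large subunit protein that reaches toward the peptidyl transferase centre. Mrpl3 stood at 519, 525 and 450 CPM in MYC/Otx2 and at 190 and 182 CPM in MYC/Gfi1. It stood at 168, 163 and 149 CPM in the S100b-cell libraries and at 84.0, 145 and 173 CPM in N1ICD. All 3 MYC/Otx2 libraries lay far above the other 8, which overlapped between N1ICD and the S100b-cell group.

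With edgeR, Mrpl3 fell by 1.89 on the log2 scale from MYC/Otx2 to N1ICD (SE 0.25, adjusted p = 0.00162) and by 1.64 to the S100b-cell tumours (SE 0.25, adjusted p = 0.00333). Both calls held in all 18 alternatives tried, with adjusted p values up to 0.00911 and 0.0219 when 1 library was left out. It rose by 1.42 from MYC/Gfi1 to MYC/Otx2 (edgeR, SE 0.29, adjusted p = 0.0281). That call was lost without MYC/Gfi1 replicate 2 (adjusted p = 0.1) and without MYC/Otx2 replicate 1, 2 or 3 (0.0855, 0.0651 and 0.0768, edgeR). It was also lost with the replicate number as a block.

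The Mrpl3 gene lies on chromosome 9 of GRCm38 at chr9:105053239-105079888 on the plus strand, with 10 exons in the transcript used. The bases before it are shown with those of Mrps31 and Mrps22, which were called higher in the S100b-cell and N1ICD tumours than in MYC/Gfi1, to set members called in different comparisons side by side. Windows are the 250 bases before the RefSeq start (GRCm38.p6), and for Mrpl3 the last 29 bases are left out because GENCODE places them inside the gene. Capitals mark matches, on either strand, to the letters searched.
Mrpl3, chr9:105053018-105053238, plus strand: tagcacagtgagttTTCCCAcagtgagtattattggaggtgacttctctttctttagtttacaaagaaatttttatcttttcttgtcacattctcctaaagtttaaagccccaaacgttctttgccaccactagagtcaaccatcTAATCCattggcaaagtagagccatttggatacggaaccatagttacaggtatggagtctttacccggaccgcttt
Mrps31, chr8:22411090-22411339, plus strand: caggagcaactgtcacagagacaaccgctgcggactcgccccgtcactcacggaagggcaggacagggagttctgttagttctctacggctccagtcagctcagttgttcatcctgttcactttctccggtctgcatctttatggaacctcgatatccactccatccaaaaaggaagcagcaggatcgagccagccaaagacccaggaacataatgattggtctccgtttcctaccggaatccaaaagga
Mrps22, chr9:98601680-98601929, minus strand: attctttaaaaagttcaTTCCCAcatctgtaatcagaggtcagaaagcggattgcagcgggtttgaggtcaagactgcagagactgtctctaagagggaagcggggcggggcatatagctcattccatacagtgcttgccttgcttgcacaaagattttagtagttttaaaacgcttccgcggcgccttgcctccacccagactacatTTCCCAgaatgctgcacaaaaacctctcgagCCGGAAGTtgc

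The letters searched were the E-box CACGTG known for MYC, TAATCC known for Otx2, TGGGAA known for RBPJ (the DNA-binding partner of N1ICD), CCGGAAGT of ETS factors and the NRF1 palindrome, GCGCA directly followed by TGCGC. None of these letter strings contains another, and a match is a description, not a binding site. Of the 76 members 67 had a promoter in the RefSeq table, which held 27025 genes. TAATCC was found before 4 members, 5.97% beside 6.38% of all promoters, and Mrpl3 was 1 of the 4, with the match starting 105 bases before the start. TGGGAA was found before 14 members (20.9% beside 21.5%), with 1 match for Mrpl3 and 2 for Mrps22. CACGTG was found before 5 members (7.46% beside 6.05%), Mrpl2, Mrpl20, Mrpl36, Mrpl37 and Mrps18c. Of these 5, 0 were called in any comparison, beside 28.4% of the tested members and 34.1% of all genes. All groups carried MYC, and a part of MYC in these levels was not tested. CCGGAAGT was found before 9 members (13.4% beside 2.93%), among them Mrps22 and, in the bases left out above, Mrpl3. The NRF1 palindrome was found before 3 members, Mrpl9, Mrpl32 and Mrpl39 (4.48% beside 0.781%). The window of Mrps31 held none of the 5.

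Mrps35, Mrps6 and Mrpl4 were also called lower than in MYC/Otx2 in both the S100b-cell and the N1ICD tumours. Mrps35, a small subunit protein without a bacterial counterpart, stood at 126, 124 and 106 CPM in MYC/Otx2 and at 48.7 and 33.4 CPM in MYC/Gfi1. It stood at 54.0, 53.6 and 53.1 CPM in the S100b-cell libraries and at 37.3, 76.3 and 60.1 CPM in N1ICD. As for Mrpl3, the MYC/Otx2 libraries lay above the other 8.

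Mrps35 rose by 1.53 from MYC/Gfi1 to MYC/Otx2 (edgeR, SE 0.31, adjusted p = 0.0296). It fell by 1.15 from there to the S100b-cell tumours (SE 0.27, edgeR adjusted p = 0.0194) and by 1.03 to N1ICD (SE 0.27, edgeR adjusted p = 0.0245). Each call was lost without some libraries. The rise was lost without MYC/Gfi1 replicate 2, any MYC/Otx2 library or S100b-cell replicate 3 (edgeR adjusted p 0.0513 to 0.116). The fall to the S100b-cell tumours was lost without MYC/Otx2 replicate 1 or 2 or S100b-cell replicate 2 or 3 (edgeR adjusted p 0.06 to 0.066). The fall to N1ICD was lost without any MYC/Otx2 library or N1ICD replicate 3 (edgeR adjusted p 0.0509 to 0.0736).

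Mrps6, the counterpart of bacterial S6 on the platform of the small subunit, stood at 151, 110 and 104 CPM in MYC/Otx2. It stood at 68.9 and 78.9 CPM in MYC/Gfi1, at 72.9, 67.1 and 68.4 CPM in the S100b-cell libraries and at 81.5, 60.7 and 75.9 CPM in N1ICD. Mrpl4, the counterpart of L4 in the wall of the exit tunnel, stood at 87.2, 75.2 and 65.5 CPM in MYC/Otx2, at 43.6 and 43.1 CPM in MYC/Gfi1, at 43.0, 36.9 and 30.6 CPM in the S100b-cell libraries and at 25.3, 52.3 and 41.4 CPM in N1ICD. For both genes the lowest MYC/Otx2 library was above every other library.

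With edgeR, Mrps6 fell by 0.81 to the S100b-cell tumours (SE 0.21, adjusted p = 0.0274) and by 0.74 to N1ICD (SE 0.21, adjusted p = 0.0324). Mrpl4 fell by 1.04 (SE 0.28, edgeR adjusted p = 0.0312) and by 0.94 (SE 0.28, edgeR adjusted p = 0.0401). These 4 calls were each lost in 5 to 7 of 11 leave-outs, with edgeR adjusted p values up to 0.0941, 0.114, 0.11 and 0.119 in that order. The libraries whose removal ended all 4 calls were MYC/Otx2 replicates 1 and 2 and S100b-cell replicates 2 and 3.

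Mrpl49, a large subunit protein found only in mitochondria, was the third member higher in MYC/Otx2 than in MYC/Gfi1. It stood at 86.3, 68.0 and 69.9 CPM in MYC/Otx2 and at 19.8 and 33.0 CPM in MYC/Gfi1, without overlap. The S100b-cell libraries stood between at 56.5, 59.5 and 47.9 CPM and the N1ICD libraries at 39.9, 45.7 and 55.6 CPM. The log2 change from MYC/Gfi1 was 1.5 (edgeR, SE 0.29, adjusted p = 0.0252) and was lost without MYC/Otx2 replicate 1, 2 or 3 (edgeR adjusted p = 0.085, 0.0538 and 0.0782). Part of the last 300 bases of Mrpl49, 30.3%, lies opposite Syvn1, which had 323 counts in all.

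Mrpl11, Mrpl16 and Mrps17, counterparts of L11 at the stalk base, L16 and S17, were called lower in N1ICD than in MYC/Otx2 and were called in no other comparison. Mrpl16 stood at 116, 103 and 112 CPM in MYC/Otx2 and at 34.3, 58.9 and 55.2 CPM in N1ICD, with the MYC/Gfi1 libraries at 54.4 and 77.9 CPM and the S100b-cell libraries at 83.3, 53.5 and 69.3 CPM. The MYC/Otx2 libraries were the highest 3 of 11. Mrpl16 fell by 1.16 (edgeR, SE 0.27, adjusted p = 0.0157), a call kept in 17 of 18 alternatives and lost without MYC/Otx2 replicate 1 (edgeR adjusted p = 0.0513).

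Mrpl11 stood at 97.2, 71.2 and 94.5 CPM in MYC/Otx2 and at 33.9, 46.0 and 57.2 CPM in N1ICD, and fell by 0.94 (edgeR, SE 0.23, adjusted p = 0.0199). The call was lost without MYC/Otx2 replicate 1 or 3 or N1ICD replicate 2 (edgeR adjusted p = 0.0672, 0.0662 and 0.0547). Mrps17 stood at 116, 81.7 and 103 CPM in MYC/Otx2 and at 44.2, 74.3 and 63.7 CPM in N1ICD, and fell by 0.72 (edgeR, SE 0.23, adjusted p = 0.0486), a call lost in 8 of 11 leave-outs, all but the 2 MYC/Gfi1 libraries and N1ICD replicate 2 (edgeR adjusted p up to 0.145). For both, N1ICD replicate 1 was the lowest of all 11 libraries.

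Mrps31 was low in both constitutive models. It encodes a mitochondria-specific protein of the small subunit head. Mrps31 stood at 19.6 and 8.28 CPM in MYC/Gfi1 and at 15.0, 16.7 and 22.4 CPM in MYC/Otx2, against 63.3, 51.0 and 46.5 CPM in the S100b-cell libraries and 44.6, 64.5 and 63.3 CPM in N1ICD. All 6 libraries of the latter groups lay above the 5 constitutive ones, and the groups overlapped within each set.

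With edgeR, Mrps31 rose from MYC/Otx2 by 1.67 in N1ICD (SE 0.34, adjusted p = 0.00963) and by 1.57 in the S100b-cell tumours (SE 0.34, adjusted p = 0.0142). The first call held in all 18 alternatives (edgeR adjusted p up to 0.0433), and the second was lost without MYC/Otx2 replicate 1 or 2 or S100b-cell replicate 1 (edgeR adjusted p = 0.057, 0.0561 and 0.0514). From MYC/Gfi1 it rose by 2.04 in N1ICD (edgeR, SE 0.41, adjusted p = 0.0157). That call was lost without MYC/Gfi1 replicate 2 (edgeR adjusted p = 0.0544) and in a fit of only the groups compared (edgeR adjusted p = 0.128). From MYC/Gfi1 Mrps31 rose by 1.94 in the S100b-cell tumours (edgeR, SE 0.40, adjusted p = 0.0309), lost in 7 of 11 leave-outs: MYC/Gfi1 replicate 2 and each MYC/Otx2 and S100b-cell library (edgeR adjusted p 0.0503 to 0.119).

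Mrps5, the counterpart of S5 near the mRNA entrance of the small subunit, was highest in the S100b-cell tumours. It stood there at 215, 200 and 163 CPM, against 57.6, 66.8 and 81.8 CPM in MYC/Otx2 and 90.3 and 54.5 CPM in MYC/Gfi1. The N1ICD libraries stood at 94.3, 122 and 146 CPM, between the S100b-cell libraries and the constitutive ones without overlap with either. Mrps5 rose from MYC/Otx2 to the S100b-cell tumours by 1.49 (edgeR, SE 0.26, adjusted p = 0.00643), a call kept in all 18 alternatives (edgeR adjusted p up to 0.0304 with 1 library left out).

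The other Mrps5 calls were less firm. The rise of 1.41 from MYC/Gfi1 to the S100b-cell tumours (edgeR, SE 0.30, adjusted p = 0.0339) was lost without MYC/Gfi1 replicate 2 and without each MYC/Otx2 and S100b-cell library (edgeR adjusted p 0.0519 to 0.161). The rise of 0.81 from MYC/Otx2 to N1ICD (edgeR, SE 0.26, adjusted p = 0.0487) was lost in 8 of 11 leave-outs, all but those of N1ICD replicate 1 and the 2 MYC/Gfi1 libraries, with edgeR adjusted p up to 0.146. Between N1ICD and the S100b-cell tumours Mrps5 differed by −0.67 (edgeR, SE 0.26, adjusted p = 0.203).

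Mrps22, a mitochondria-specific small subunit protein whose human gene is mutated in inherited respiratory chain disease, was lowest in MYC/Gfi1. It stood at 35.8 and 26.3 CPM there, at 56.6, 53.6 and 58.4 CPM in MYC/Otx2, at 121, 106 and 86.4 CPM in the S100b-cell libraries and at 57.0, 114 and 153 CPM in N1ICD. N1ICD replicate 1 lay among the MYC/Otx2 libraries, and the other 2 N1ICD libraries among or above the S100b-cell ones. From MYC/Gfi1, Mrps22 rose by 1.80 in N1ICD (edgeR, SE 0.38, adjusted p = 0.0195), lost without MYC/Gfi1 replicate 2 (edgeR adjusted p = 0.0948). That call was also lost with the replicate number as a block and with only the groups compared (edgeR adjusted p up to 0.144). From MYC/Gfi1 Mrps22 rose by 1.75 in the S100b-cell tumours (edgeR, SE 0.38, adjusted p = 0.0357), lost without MYC/Gfi1 replicate 2 and without each MYC/Otx2 and S100b-cell library (edgeR adjusted p 0.0584 to 0.174).

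Mrpl47, the counterpart of L29 near the tunnel exit, and Mrpl21, the counterpart of L21, were also called higher than MYC/Gfi1 in both models. Mrpl47 stood at 43.7 and 31.1 CPM in MYC/Gfi1, at 53.7, 54.4 and 60.3 CPM in MYC/Otx2, at 126, 137 and 89.8 CPM in the S100b-cell libraries and at 55.7, 95.2 and 144 CPM in N1ICD. Mrpl21 stood at 54.7 and 43.7 CPM in MYC/Gfi1, at 111, 87.7 and 92.0 CPM in MYC/Otx2, at 149, 138 and 122 CPM in the S100b-cell libraries and at 80.2, 107 and 137 CPM in N1ICD. In both genes the MYC/Gfi1 libraries were the lowest 2 of 11.

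Mrpl47 rose by 1.65 in the S100b-cell tumours (edgeR, SE 0.38, adjusted p = 0.0421) and by 1.40 in N1ICD (edgeR, SE 0.38, adjusted p = 0.0427). It also rose by 1.07 from MYC/Otx2 to the S100b-cell tumours (edgeR, SE 0.33, adjusted p = 0.0481). Mrpl21 rose by 1.47 in the S100b-cell tumours (edgeR, SE 0.27, adjusted p = 0.0246), lost without MYC/Gfi1 replicate 2 or any S100b-cell library (edgeR adjusted p 0.0601 to 0.114). It rose by 1.13 in N1ICD (edgeR, SE 0.27, adjusted p = 0.0269), lost without MYC/Gfi1 replicate 2 or N1ICD replicate 2 or 3 (edgeR adjusted p = 0.117, 0.0614 and 0.0653). The Mrpl47 call in N1ICD was lost in 10 of 11 leave-outs, all but that of N1ICD replicate 1 (edgeR adjusted p 0.0563 to 0.182). The Mrpl47 calls against MYC/Gfi1 and MYC/Otx2 in the S100b-cell tumours were lost in 8 and 7 of 11 leave-outs, with edgeR adjusted p up to 0.201 and 0.132.

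**Figure D4:**
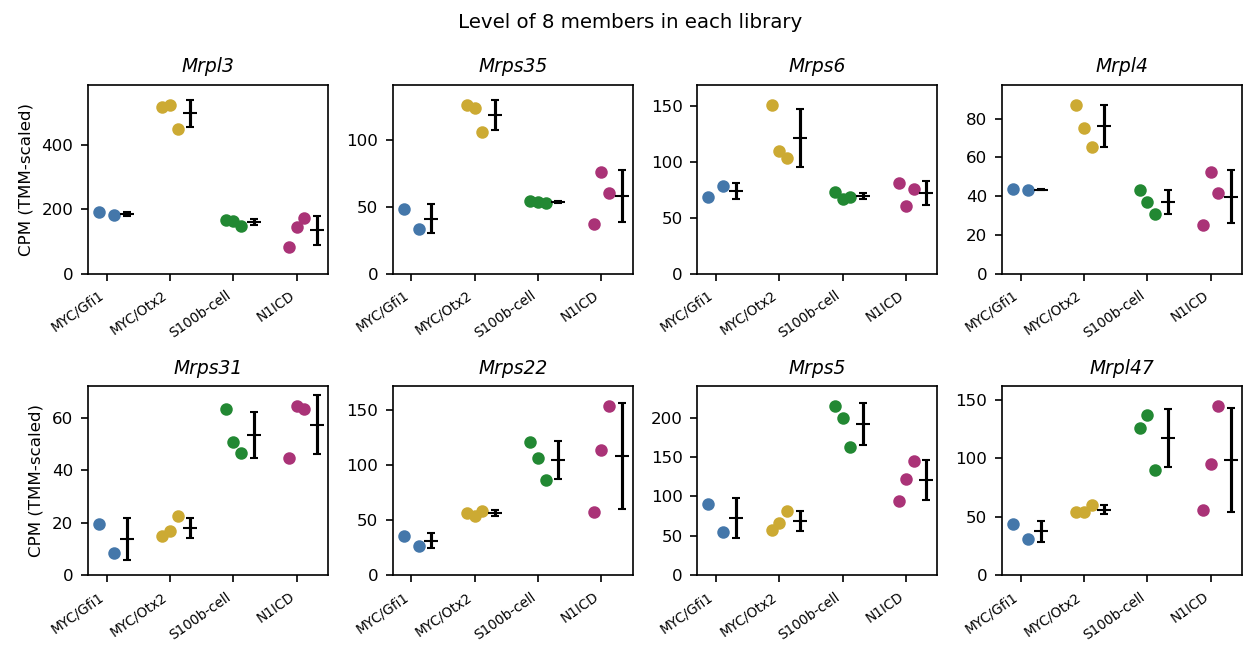
Level in CPM (TMM-scaled, y axis from 0, own scale per gene) of 8 members in each of 11 libraries, by model; points are libraries, and the black marks are the group mean ± SD. Mrpl3, Mrps35, Mrps6 and Mrpl4 (top row) are highest in the 3 MYC/Otx2 libraries, and Mrps31, Mrps22, Mrps5 and Mrpl47 (bottom row) reach their highest levels in the S100b-cell or N1ICD libraries.

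Mrpl52, a mitochondria-specific large subunit protein, stood at 80.2, 104 and 121 CPM in N1ICD, against 45.3 and 33.6 CPM in MYC/Gfi1 and 63.7, 42.1 and 65.1 CPM in MYC/Otx2. It rose in N1ICD by 1.36 from MYC/Gfi1 (edgeR, SE 0.30, adjusted p = 0.0208) and by 0.83 from MYC/Otx2 (edgeR, SE 0.26, adjusted p = 0.0429). The first call was lost without MYC/Gfi1 replicate 2 or N1ICD replicate 2 or 3 (edgeR adjusted p = 0.096, 0.0519 and 0.0545), and the second in 8 of 11 leave-outs (edgeR adjusted p up to 0.133).

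Mrpl40, also mitochondria-specific, stood at 22.5 and 29.8 CPM in MYC/Gfi1 and at 45.9, 70.8 and 88.9 CPM in N1ICD, a rise of 1.39 (edgeR, SE 0.36, adjusted p = 0.0354) lost in 7 of 11 leave-outs (edgeR adjusted p up to 0.111). Mrps16, the counterpart of S16, stood at 37.7, 30.0 and 29.9 CPM in MYC/Otx2 and at 66.1, 78.1 and 67.0 CPM in the S100b-cell libraries, a rise of 1.11 (edgeR, SE 0.28, adjusted p = 0.0249). It was lost without any one of these 6 libraries (edgeR adjusted p 0.0523 to 0.0885).

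Mrps15, the counterpart of S15, rose in the S100b-cell tumours by 0.97 from MYC/Gfi1 (edgeR, SE 0.22, adjusted p = 0.0391) and by 0.63 from MYC/Otx2 (edgeR, SE 0.19, adjusted p = 0.049). The S100b-cell libraries stood at 140, 144 and 108 CPM, above every other library. Mrpl45, which helps anchor the ribosome to the inner membrane, stood at 44.5, 35.5 and 43.5 CPM in MYC/Otx2 and at 82.9, 71.4 and 64.9 CPM in the S100b-cell libraries, a rise of 0.83 (edgeR, SE 0.24, adjusted p = 0.0389). The Mrps15 rise from MYC/Gfi1 and the Mrpl45 rise were lost in 9 and 7 of 11 leave-outs, with edgeR adjusted p up to 0.169 and 0.133. The Mrps15 rise from MYC/Otx2 was lost in 8, all but the 2 MYC/Gfi1 libraries and N1ICD replicate 1 (edgeR adjusted p up to 0.167).

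Mrpl27, the counterpart of L27 beside the peptidyl transferase centre, stood at 4.10, 8.22 and 8.78 CPM in MYC/Otx2, at 23.7, 24.6 and 22.6 CPM in the S100b-cell libraries and at 26.2, 20.2 and 24.3 CPM in N1ICD. The MYC/Gfi1 libraries stood at 14.6 and 3.63 CPM and disagreed with each other. Mrpl27 rose from MYC/Otx2 by 1.74 in both the S100b-cell tumours (edgeR, SE 0.49, adjusted p = 0.0347) and N1ICD (edgeR, SE 0.49, adjusted p = 0.0316). These calls were lost in 6 and 7 of 11 leave-outs (edgeR adjusted p up to 0.107 and 0.0994). Stretches of about 100 bases of its transcript are at least 95% identical to those of many unrelated genes, so its counts are uncertain.

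The largest fitted changes belonged to members with few counts. Mrps28, the counterpart of S1, had 5 and 1 counts in MYC/Gfi1, 2, 5 and 4 in MYC/Otx2, 16, 74 and 47 in the S100b-cell libraries and 18, 28 and 5 in N1ICD. In CPM the N1ICD libraries stood at 7.72, 9.76 and 2.03 and every constitutive library below 0.63. Mrps28 rose in N1ICD by 4.07 from MYC/Gfi1 (edgeR, SE 1.10, adjusted p = 0.0407), lost in 9 of 11 leave-outs (edgeR adjusted p up to 0.164). It rose by 3.79 from MYC/Otx2 (edgeR, SE 0.91, adjusted p = 0.0175), lost without MYC/Otx2 replicate 1 or 3 or N1ICD replicate 2 (edgeR adjusted p = 0.0637, 0.0594 and 0.0506). The call from MYC/Otx2 was also lost with limma-voom.

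Of the 3 S18 paralogues, 1 was called. Mrps18b had 1, 1 and 4 counts in MYC/Otx2 and 5, 4 and 6 in N1ICD, at 0.141, 0.125 and 0.462 CPM against 2.14, 1.39 and 2.43 CPM. It rose by 2.93 (edgeR, SE 0.85, adjusted p = 0.0344), lost in 7 of 11 leave-outs (edgeR adjusted p up to 0.0947). Gm16279, which lies opposite its last exonic bases, had 0 counts in the 3 MYC/Otx2 libraries and 4, 3 and 4 in N1ICD, and the 2 cannot be told apart without strand. From MYC/Gfi1 to MYC/Otx2 Mrps18b had the lowest difference of any member, −1.83 (edgeR, SE 0.88, adjusted p = 0.202), with 7 and 7 counts in MYC/Gfi1. Mrpl24 had the next lowest, −0.56 (edgeR, SE 1.20, adjusted p = 0.786), which turned to 0.32 without MYC/Gfi1 replicate 2 and to 0.01 without MYC/Otx2 replicate 2. Mrps18a and Mrps18c, of the large and the small subunit, were called in 0 of 6 comparisons. Mrps18c stood at 27.3 and 20.8 CPM in MYC/Gfi1 and at 63.3, 55.5 and 51.7 CPM in the S100b-cell libraries, which did not overlap, and its difference of 1.24 had an edgeR adjusted p = 0.0968 (SE 0.40). Mrps18a differed by −0.17 in the same comparison (edgeR, SE 0.31, adjusted p = 0.775).

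Other members of special role were not called either. Mrps12, the S12 counterpart of the decoding centre, stood at 97.7 and 137 CPM in MYC/Gfi1, at 186, 130 and 128 CPM in MYC/Otx2, at 124, 125 and 87.7 CPM in the S100b-cell libraries and at 54.9, 98.3 and 106 CPM in N1ICD. The largest of its 6 differences was −0.77, in N1ICD against MYC/Otx2 (edgeR, SE 0.30, adjusted p = 0.0862). Mrpl12, the stalk protein, stood at 162 and 183 CPM in MYC/Gfi1 and at 339, 306 and 319 CPM in the S100b-cell libraries, which did not overlap, with a difference of 0.90 (edgeR, SE 0.30, adjusted p = 0.105). Mrps30 differed by 0.71 in that comparison (edgeR, SE 0.28, adjusted p = 0.154). Mrps36 ran from 0 to 6.90 CPM with a spread in N1ICD of 1.29, 2.79 and 6.90 CPM.

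In the N1ICD against S100b-cell comparison, where 0 members were called, Mrpl30 and Mrpl54 had the lowest differences. Mrpl30 stood at 46.3, 45.0 and 62.9 CPM in N1ICD and at 97.2, 101 and 91.6 CPM in the S100b-cell libraries, without overlap. Its difference was −0.91 (edgeR, SE 0.22, adjusted p = 0.0811), and DESeq2 gave −0.85 with an adjusted p of 0.00668. Mrpl54 stood at 35.6, 61.0 and 64.9 CPM against 107, 87.9 and 103 CPM, a difference of −0.88 (edgeR, SE 0.35, adjusted p = 0.215). The highest differences were those of Mrps28, 0.99 (edgeR, SE 0.79, adjusted p = 0.548), and Mrps18b, 0.76 (edgeR, SE 0.76, adjusted p = 0.643), both with few counts.

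By role, the median of each class was above 0 in all 3 comparisons with MYC/Gfi1. Members were classed as having a bacterial counterpart or as found only in mitochondria, from textbook knowledge. In the S100b-cell tumours against MYC/Gfi1 the median log2 change was 0.68 for the 16 small subunit members with a bacterial counterpart and 0.63 for the 9 tested ones without. It was 0.86 for the 29 large subunit members with a counterpart and 0.66 for the 19 tested ones without. The 6 calls were 2 of 16 and 2 of 9 in the small subunit classes and 2 of 29 and 0 of 19 in the large ones. Of all genes 4.35% were called, 2.34% higher. In N1ICD against MYC/Otx2 the 7 falls were 2 of 16 small and 4 of 29 large subunit members with a counterpart. Of those without, 1 of 9 small and 0 of 19 large subunit members fell, beside 9.76% of all genes called lower. A difference between the classes was not tested.

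The other genes of the pathway were described from lists chosen with earlier results of these data known. Against MYC/Gfi1, 2 of 13 mitochondrial translation factors rose in the S100b-cell tumours and 0 were called in MYC/Otx2. The former is 15.4% of the list beside 4.35% of all genes. From MYC/Otx2, 3 rose in N1ICD (23.1% beside 21.8% of all genes), and 1 rose and 1 fell in the S100b-cell tumours (15.4% beside 17.9%), shares near those of all genes. From MYC/Gfi1, 3 of the 13 rose in N1ICD and 0 fell (23.1% beside 11.5%). Mtif2, the initiation factor, stood at 14.3 and 15.5 CPM in MYC/Gfi1, at 24.0, 25.3 and 23.6 CPM in MYC/Otx2, at 39.5, 37.3 and 33.4 CPM in the S100b-cell libraries and at 51.4, 42.9 and 41.8 CPM in N1ICD, so that the 4 groups did not overlap. It rose by 1.60 from MYC/Gfi1 to N1ICD (edgeR, SE 0.25, adjusted p = 0.00715) and by 1.30 to the S100b-cell tumours (edgeR, SE 0.25, adjusted p = 0.0269). Gfm2 and Mrrf, which act together to recycle the ribosome after termination, rose in N1ICD by 1.44 (edgeR, SE 0.35, adjusted p = 0.0281) and by 1.33 (edgeR, SE 0.28, adjusted p = 0.018). Mrrf also rose in the S100b-cell tumours, by 1.56 (edgeR, SE 0.28, adjusted p = 0.024).

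Among the 7 listed subunits with other symbols, 0 were called against MYC/Gfi1. Of all genes, 5.46% were called in MYC/Otx2, 4.35% in the S100b-cell tumours and 11.5% in N1ICD. From MYC/Otx2, 1 of the 7 fell and 0 rose in N1ICD and in the S100b-cell tumours (14.3% each, beside 21.8% and 17.9%). Chchd1, a small subunit protein, was lower than in MYC/Otx2 by 1.43 in N1ICD (log2 change −1.43, edgeR, SE 0.26, adjusted p = 0.00571) and by 0.92 in the S100b-cell tumours (−0.92, edgeR, SE 0.26, adjusted p = 0.0352). Of 23 assembly factors, 5 fell and 0 rose in N1ICD against MYC/Otx2. This is 21.7% of the list, beside 21.8% of all genes called in either direction and 9.76% called lower. The 3 with the smallest adjusted p were the helicase Ddx28, which fell by 1.92 (edgeR, SE 0.30, adjusted p = 0.00323), Ngrn, which fell by 0.91 (edgeR, SE 0.21, adjusted p = 0.0151), and the rRNA methyltransferase Mrm1, which fell by 1.03 (edgeR, SE 0.29, adjusted p = 0.0307). From MYC/Gfi1, 1 of the 23 rose and 1 fell in N1ICD, 1 rose in MYC/Otx2 and 0 were called in the S100b-cell tumours (8.7%, 4.35% and 0% beside 11.5%, 5.46% and 4.35% of all genes). In the S100b-cell tumours 2 of the 23 rose from MYC/Otx2 and 2 fell (17.4% beside 17.9%), with Mpv17l2 up by 2.31 (edgeR, SE 0.47, adjusted p = 0.0111).

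Of 15 tested genes of mitochondrial transcription, RNA handling and DNA replication, Ptcd1 was high in MYC/Otx2, as Mrpl3 was. The DNA replication genes in this list were Peo1, Polg, Polg2 and Ssbp1. From MYC/Gfi1, 2 of the 15 rose in N1ICD, 1 in the S100b-cell tumours and 1 in MYC/Otx2, and 0 fell (13.3%, 6.67% and 6.67% beside 11.5%, 4.35% and 5.46% of all genes). From MYC/Otx2, 3 rose and 2 fell in N1ICD (33.3% beside 21.8%), and 1 rose and 1 fell in the S100b-cell tumours (13.3% beside 17.9%). Ptcd1, a mitochondrial RNA-binding protein, stood there at 82.9, 64.0 and 64.4 CPM and in the other 8 libraries between 11.1 and 20.6 CPM. It rose by 2.05 from MYC/Gfi1 (edgeR, SE 0.36, adjusted p = 0.0172). From MYC/Otx2 it fell by 2.13 in N1ICD (edgeR, SE 0.31, adjusted p = 0.00225) and by 2.07 in the S100b-cell tumours (edgeR, SE 0.31, adjusted p = 0.00295). Of 20 aminoacyl-tRNA synthetases and related enzymes, 1 rose from MYC/Gfi1 to MYC/Otx2, Vars2 by 1.17 (edgeR, SE 0.26, adjusted p = 0.0345), and 1 to N1ICD, Iars2 by 1.14 (edgeR, SE 0.27, adjusted p = 0.0274). Each is 5% of the list, beside 5.46% and 11.5% of all genes. From MYC/Otx2, 2 rose and 1 fell in N1ICD (15% beside 21.8%), and 1 rose and 1 fell in the S100b-cell tumours (10% beside 17.9%). Between N1ICD and the S100b-cell tumours, edgeR called 0 genes of these 5 lists, beside 1.21% of all genes.

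The 2 RNAs of the mitochondrial ribosome were highest in the N1ICD tumours. The large subunit RNA mt-Rnr2 stood at 14092 and 17346 CPM in MYC/Gfi1 and at 13175, 12817 and 15642 CPM in MYC/Otx2. It stood at 44114, 43293 and 36360 CPM in the S100b-cell libraries and at 139224, 181517 and 133945 CPM in N1ICD, where every library lay above all others. It rose from the S100b-cell tumours to N1ICD by 1.88 (edgeR, SE 0.19, adjusted p = 0.00347) and mt-Rnr1 by 1.86 (edgeR, SE 0.23, adjusted p = 0.00985), a comparison in which 0 ribosomal protein members were called. Of the 9 tested mitochondrially encoded genes, 6 rose in N1ICD and 7 in the S100b-cell tumours from MYC/Gfi1, and 8 and 9 from MYC/Otx2. These are 66.7%, 77.8%, 88.9% and 100% of the 9 tested genes, beside 11.5%, 4.35%, 21.8% and 17.9% of all genes. The list held 15 genes. Those not tested were mt-Nd3, mt-Nd4l, mt-Co2, mt-Co3, mt-Atp6 and mt-Atp8, which had at most 10 counts in any library. Counts of the mitochondrial genome took 25.6% ± 2.20 of N1ICD libraries and 16% ± 2.15 of S100b-cell libraries (SD, n = 3 each), against 5.98% ± 0.024 (n = 2) and 5.41% ± 0.297 (n = 3) in MYC/Gfi1 and MYC/Otx2. A 3′ kit primes on poly(A) tails, and the part of tail length or RNA quality in these values was not tested.

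Set beside other gene families, the members' median against MYC/Gfi1 was 0.77 in the S100b-cell tumours, 0.57 for 77 cytosolic ribosomal proteins and 0.56 for 77 nuclear respiratory chain genes. In MYC/Otx2 the medians were 0.50, 0.46 and 0.07, and in N1ICD 0.50, 0.03 and 0.21. The calls against MYC/Gfi1 were 3, 0 and 0 in MYC/Otx2, 6, 7 and 2 in the S100b-cell tumours and 7, 6 and 0 in N1ICD, all of them rises. As shares these were 4.05%, 0% and 0% in MYC/Otx2 (all genes 5.46%), 8.11%, 9.09% and 2.6% in the S100b-cell tumours (all genes 4.35%) and 9.46%, 7.79% and 0% in N1ICD (all genes 11.5%). A difference between the families was not tested.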

How the data were processed

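RNA of frozen cerebellar tumours was sequenced in 11 libraries with a QuantSeq 3′ forward kit, per the labels' protocols. By the same protocols, unique molecular identifiers were added at second-strand synthesis. Per the submitters' processing notes, the tools were STAR 2.4.1d and HTSeq 0.6.1 with build mm10. The annotation release, strand setting and handling of identifiers were not given in the sources used here. Raw counts per gene symbol, not normalized by the authors, make up the deposited table.

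Genes passing filterByExpr (15228) were fitted with edgeR 4.0.16 (R 4.3.3) in 1 quasi-likelihood model of the 4 groups, with TMM scaling and robust dispersion (common biological coefficient of variation 0.562, 7 residual degrees of freedom). Two-sided p-values were adjusted by Benjamini-Hochberg over all genes tested in each comparison. SE is the log2 change over the square root of F. Depth limits low genes: 3 counts equal 0.194 CPM in the deepest library and 1.29 CPM in the shallowest. Alternatives were DESeq2 1.42.0, limma 3.58.1 (voom), RLE scaling, no low-count filter, no mitochondrially encoded genes, only the groups compared, the replicate number as a block, and each library left out. Positions are from GENCODE (GRCm38, also called mm10), promoters from RefSeq, and copies from blastn 2.17.0. No pair of libraries of the same group held the same counts (chi-square per degree of freedom at least 21.35). Pairs from different groups were not compared in this way.

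The members and the gene lists were chosen with earlier results of these data known. Members named were up to 6 called ones per direction and comparison with the smallest adjusted p, the extremes where fewer than 4 were called, the S18 paralogues and members of special role; Mrps17, the N1ICD value of Mrpl47 and the Mrps15 value against MYC/Otx2 were added after their values were seen. From each pathway list, a selection of up to 3 called genes per comparison was printed. The fit was tested on simulated data, where it missed most of the changes built in, so a gene not called may still differ.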

Additional observations from a re-analysis of the deposited data

How the results depend on the processing

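Leaving out 1 library at a time, the number of members called ran from 0 to 11 in N1ICD against MYC/Gfi1 (7 with all libraries), from 0 to 17 in the S100b-cell tumours against MYC/Gfi1 (6), from 0 to 5 in MYC/Otx2 against MYC/Gfi1 (3), from 2 to 15 in N1ICD against MYC/Otx2 (13), from 2 to 16 in the S100b-cell tumours against MYC/Otx2 (11) and was 0 throughout in N1ICD against the S100b-cell tumours. Over the same leave-outs the share of all genes called ran, in that order, from 4.94% to 13.5%, 0.0794% to 12.2% and 0.43% to 13.3% against MYC/Gfi1. It ran from 10.9% to 25% and 7.89% to 21.9% against MYC/Otx2 and from 0.0598% to 1.74% in the last comparison. The medians of the members ran, in the same order, from 0.37 to 0.73, 0.71 to 0.85, 0.46 to 0.66, −0.24 to 0.21, 0.28 to 0.46 and −0.40 to −0.08. In that order of comparisons, DESeq2 called 13, 22, 7, 18, 17 and 1 members, and limma-voom called 4, 19, 4, 7, 18 and 0. Over all genes DESeq2 called 22.1%, 15.1%, 17.7%, 30.6%, 28.4% and 8.93%, against 17.6%, 29.7%, 9.46%, 24.3%, 23% and 1.35% of members. Over all genes limma-voom called 6.66%, 9.14%, 9.04%, 14.6%, 24.2% and 0.834%, against 5.41%, 25.7%, 5.41%, 9.46%, 24.3% and 0% of members. Without the low-count filter the first count was 3 (4% of members, 5.19% of all genes). A fit of only the groups compared gave 0 in N1ICD and 0 in the S100b-cell tumours against MYC/Gfi1, 1 in MYC/Otx2 against MYC/Gfi1 and 30 in the S100b-cell tumours against MYC/Otx2 (all genes 0.122%, 0%, 2.71% and 33.9%). The replicate numbers showed no sign of pairing. Same-numbered libraries correlated between −0.169 and 0.187 over 15 pairs, and differently numbered ones between −0.268 and 0.268 over 30 pairs. These correlations are of deviations from means of 2 or 3 libraries, so they cannot show that the samples were unpaired. A fit with the replicate number as a block gave 2, 0, 0, 5 and 5 members in the first 5 comparisons (all genes 5.18%, 0.67%, 1.37%, 14.5% and 12.5%). RLE scaling and leaving out the mitochondrially encoded genes kept every count within 1.5 times. Of 826 refits of the 46 member and comparison pairs followed, 549 kept their direction and side of the threshold, 274 lost the call and 1 gained it. The other 2 turned the uncalled Mrpl24 difference in MYC/Otx2 against MYC/Gfi1 from −0.56 to 0.315 without MYC/Gfi1 replicate 2 and to 0.0112 without MYC/Otx2 replicate 2, with a leave-out range of −2.31 to 0.315. Calls of 4 of 40 called pairs held in all 18 alternatives: Mrpl3 in N1ICD and in the S100b-cell tumours against MYC/Otx2, Mrps31 in N1ICD against MYC/Otx2 and Mrps5 in the S100b-cell tumours against MYC/Otx2. Depth limits Mrps28, Mrps18b, Mrpl24, Mrps36 and Mrpl23, each with under 210 counts in all. The cause of these changes was not tested.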
